A study of Penicillium oxalicum with 6 samples.

Results

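Xyn10A, Xyn11A and Xyn11B are xylanase genes of Penicillium oxalicum, a mould whose secreted enzymes break down plant cell walls. They carry the IDs POX00063, POX06783 and POX08484. The 3 genes were chosen by ID from the 9727 genes listed in every library, and their enzyme names come from the definition of the group, since the deposited tables hold IDs without names. The parent, Δku70, is without ku70, a gene for part of the Ku complex, which acts in the joining of broken DNA. The mutant, ΔPOX01387, carries a deletion of POX01387. Since Δku70 is given as its parent, the loss of ku70 is taken as shared by all 6 libraries. Both strains were grown in liquid medium with 1% glucose for 24 h at 28 °C. A portion of about 1 g was next transferred to 2% Avicel, a microcrystalline cellulose, for 24 h, and 3 libraries per strain were sequenced. Whether the replicates were separate cultures and whether the mutant is 1 clone is not in the labels, so p-values reflect only the spread among these libraries, which may be technical.

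Endoxylanases cut the backbone of xylan, the main hemicellulose of many plant cell walls, inside the chain of beta-linked xylose units. Enzymes of family GH10 tolerate side chains on the xylan backbone well and can cut close to them, whereas the smaller enzymes of family GH11 prefer stretches without side chains. In filamentous fungi the genes for xylanases are commonly controlled together with those for cellulases, are repressed by glucose and are induced by breakdown products of plant polysaccharides.

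The level of each gene was deposited as FPKM, fragments per kilobase of transcript scaled to the mapped fragments, a unit corrected for length, so levels of different genes can be compared. Summed FPKM per library ranged from 1002899 to 1048959, and the number of reads behind the values is unknown. POX01387, the deleted gene, was at 9.4, 6.89 and 6.14 FPKM in Δku70 replicates 1, 2 and 3, at 0.02 FPKM in ΔPOX01387 replicate 1 and listed at 0 in replicates 2 and 3, which follows the labels. Δku70 replicate 1 stood apart from the other parental libraries on the second principal component, which held 12.2% of the variance. It also held the lowest value of each of the 3 xylanase genes. The fold changes, ratios and profile distances of these genes are therefore given with and without it. Genes numbered next to them, and the shares of other abundant genes called, are given with all libraries only.

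In the parental strain all 3 xylanase genes were among the abundant transcripts on cellulose, and Xyn11B was the most abundant of them. Xyn11B, a GH11 enzyme by its name, was at 2706.8, 5306.59 and 5300.68 FPKM in Δku70 replicates 1, 2 and 3, which placed it at ranks 39, 17 and 15 of 9727 genes. Xyn11A, the other GH11 enzyme, was at 513.8, 2364.14 and 1980.61 FPKM in the same libraries, at ranks 321, 53 and 64. Xyn10A, the GH10 enzyme, was at 1108.58, 1674.94 and 1941.29 FPKM, at ranks 118, 81 and 65. Xyn11B was the highest of the 3 in every parental library, by at least 2.24-fold over the next gene. Xyn10A and Xyn11A could not be ordered in Δku70. Xyn10A was 2.16-fold higher than Xyn11A in replicate 1, Xyn11A was 1.41-fold higher than Xyn10A in replicate 2, and the pair were within 1.02-fold of each other in replicate 3.

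**Figure D1:**
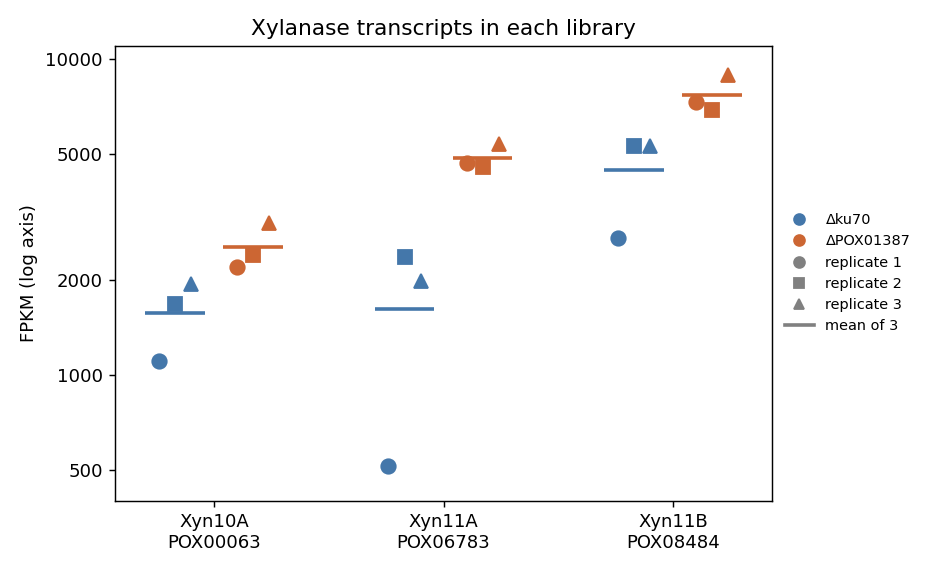
FPKM (log axis) of Xyn10A, Xyn11A and Xyn11B in each of the 3 Δku70 (blue) and 3 ΔPOX01387 (orange) libraries; symbols mark the replicate number and lines the mean of 3. For each gene the 3 mutant libraries lie above the 3 parental ones, and Δku70 replicate 1 is the lowest point.

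The parental libraries did not vary alike for the 3 genes. Δku70 replicate 1 was 4.21-fold below the mean of replicates 2 and 3 for Xyn11A, 1.96-fold below it for Xyn11B and 1.63-fold below it for Xyn10A, on the log2(FPKM + 1) scale. Only 28 of 8925 tested genes, Xyn11A included, were as low in that library relative to the other 2, and the median tested gene was 0.04 higher there on the log2 scale. The spread of Xyn11A within the parental strain was correspondingly wide, with a highest value 4.60 times the lowest. A class of 160 tested genes averaged 1000 FPKM or more across the libraries, and 9 of them had a range as wide in Δku70, Xyn11A among them. In the mutant its highest value was 1.18 times the lowest, and 105 of the 160 abundant genes had a range at least as wide.

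The comparison of the strains asked how the xylanase genes change when POX01387 is missing from mycelium on cellulose. Xyn11A and Xyn10A rose in ΔPOX01387, and Xyn11B had higher values that narrowly missed the threshold. The tests covered all genes averaging 1 FPKM or more, a filter that all 3 members passed, and used limma on log2(FPKM + 1), two-sided, at a Benjamini-Hochberg adjusted p of 0.05 over 8925 genes. By that rule 2 of the 3 members were higher and 0 lower, against 47.9% of all tested genes called in either direction, 15.3% higher and 32.6% lower. In the abundant class of 160 genes, 20.6% were higher and 20.6% lower. Every mutant library lay above every parental library for 3 of the 3 members, an arrangement that 19.3% of all tested genes and 34.4% of the 160 abundant genes also had. The median log2 fold change was 0.85 for the 3 members, -0.15 for all tested genes and 0.14 for the abundant ones. Because FPKM are relative values from bulk mycelium, more cells expressing a gene and more of its RNA per cell cannot be told apart.

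Xyn11A had the largest fitted strain difference of the 3. It was at 4685.17, 4555.7 and 5365.57 FPKM in ΔPOX01387 replicates 1, 2 and 3, at ranks 16, 17 and 15. All mutant values exceeded the highest parental value, 2364.14 FPKM, and they were close together while the parental ones were not. The parental mean of 1619.5 ± 977 FPKM compared with a mutant mean of 4869 ± 435 FPKM (SD, n = 3 each). The fitted log2 fold change reached 1.86 ± 0.55 (SE; limma, adjusted p = 0.032), a 3.62-fold difference with a 95% interval, not adjusted for the number of genes, of 1.44 to 9.08. With all libraries, a larger rise was fitted for 66 of the 8925 tested genes. Without Δku70 replicate 1 the difference was smaller, at 1.17 ± 0.15 on the log2 scale or 2.24-fold (SE, limma, adjusted p = 0.0032). That library was singled out partly for its low xylanase values, so the smaller SE and p are not a gain in precision. By the same rule 14.4% of all tested genes were then higher. The lowest mutant library was 1.93-fold above the highest parental one. The call was lost when any 1 of the mutant libraries was left out. The limma adjusted p was 0.082, 0.075 and 0.079 without ΔPOX01387 replicates 1, 2 and 3, although the log2 fold change stayed between 1.78 and 1.90. Over all tested genes, 833, 900 and 1346 were called higher in these fits, against 1366 with all libraries.

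Xyn10A, the GH10 member, rose by a smaller fitted amount. It was at 2200.09, 2397.67 and 3019.04 FPKM in ΔPOX01387 replicates 1, 2 and 3, at ranks 50, 45 and 30. The strains did not overlap, but the lowest mutant library was only 1.13-fold above the highest parental one. Its mean was 1575 ± 425 FPKM in the parent and 2539 ± 427 FPKM in the mutant (SD, n = 3 each). The fitted log2 difference was 0.71 ± 0.24 (SE; limma, adjusted p = 0.048), or 1.64-fold with an unadjusted 95% interval of 1.10 to 2.45. With all libraries, a larger rise was fitted for 700 of the 8925 tested genes. The call was lost without Δku70 replicate 1 (0.48 ± 0.17, adjusted p = 0.069), Δku70 replicate 2 (0.78, adjusted p = 0.070), and ΔPOX01387 replicates 1 (0.81, adjusted p = 0.078), 2 (0.75, adjusted p = 0.099) and 3 (0.58, adjusted p = 0.13), all log2 values from limma. It was also lost with no filter on low values (adjusted p = 0.057) and with the libraries rescaled to equal sums (0.68, adjusted p = 0.061). The call was kept without Δku70 replicate 3 (limma, adjusted p = 0.046). Every other alternative that kept all libraries also kept it, with limma adjusted p from 0.018 (replicate block) to 0.049 (robust prior variance).

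Xyn11B, the most abundant member, was at 7293.15, 6874.7 and 8928.95 FPKM in ΔPOX01387 replicates 1, 2 and 3. These values put it at ranks 7, 8 and 7 of 9727 genes, and each exceeded the highest parental value of 5306.59 FPKM. The parental mean was 4438 ± 1499 FPKM and the mutant mean 7699 ± 1086 FPKM (SD, n = 3 each). The log2 fold change came to 0.85 ± 0.31 (SE; limma, adjusted p = 0.057), a 1.80-fold difference that did not pass the threshold. Its unadjusted 95% interval, 1.09 to 2.99-fold, holds the fitted difference of Xyn10A, so the side of the threshold on which each falls does not separate the pair. A larger rise than that of Xyn11B was fitted with all libraries for 506 of the 8925 tested genes. Without Δku70 replicate 1 the log2 fold change of Xyn11B was 0.53 ± 0.17 (SE; limma, adjusted p = 0.049), smaller but past the threshold. Since that library was singled out partly for its low xylanase values, the smaller SE and p are not a gain in precision. Without Δku70 replicate 2 it was also past the threshold, at 1.01 (limma, adjusted p = 0.0495). With median-of-ratios scaling the log2 fold change of Xyn11B was 1.02 (limma, adjusted p = 0.040), and 23.7% of all tested genes were then higher. Quantile normalization, no trend in the prior variance and a replicate block also took it past the threshold (limma, adjusted p = 0.044, 0.046 and 0.049). It stayed short without Δku70 replicate 3 (limma, adjusted p = 0.073) and without ΔPOX01387 replicates 1, 2 and 3 (adjusted p = 0.12, 0.10 and 0.15). The same held with no filter on low values (adjusted p = 0.077) and with equal sums (adjusted p = 0.068).

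**Figure D2:**
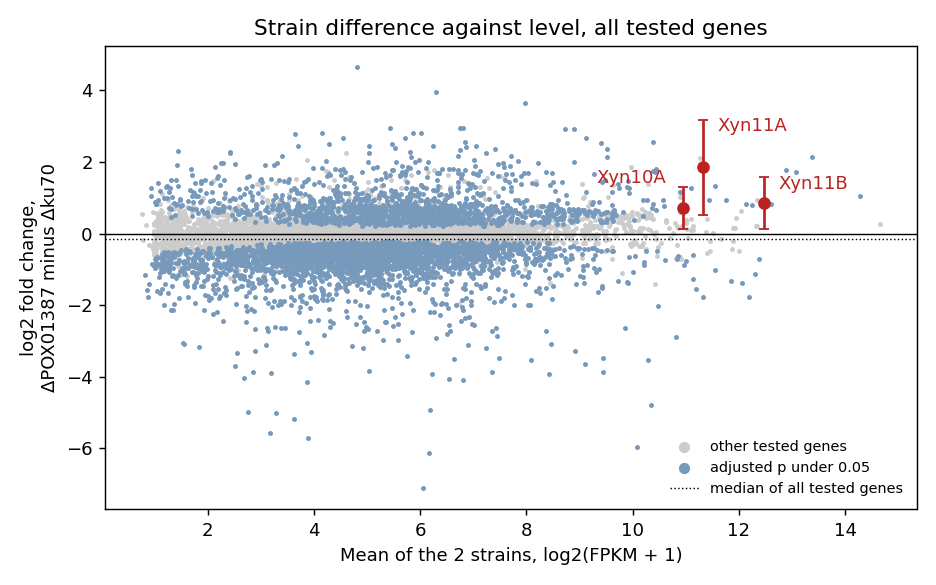
Log2 fold change (ΔPOX01387 minus Δku70) against the mean level of the strains on the log2(FPKM + 1) scale for 8925 tested genes; blue points passed an adjusted p of 0.05, and red points with unadjusted 95% intervals are the xylanase genes. The 3 members lie at the abundant end at 0.71, 1.86 and 0.85, above the dotted median of -0.15.

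The values rested on the libraries to unequal degrees, as the plot of fits with a library left out shows. All 6 such fits gave a higher level in the mutant for each member, which was fixed in advance because the strains did not overlap. The call was kept in 3 of 6 for Xyn11A and in 1 of 6 for Xyn10A, and 2 of 6 put Xyn11B past the threshold. Removing Δku70 replicate 1 lowered the log2 fold change of Xyn11A by a factor of 1.59, of Xyn11B by 1.61 and of Xyn10A by 1.49.

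**Figure D3:**
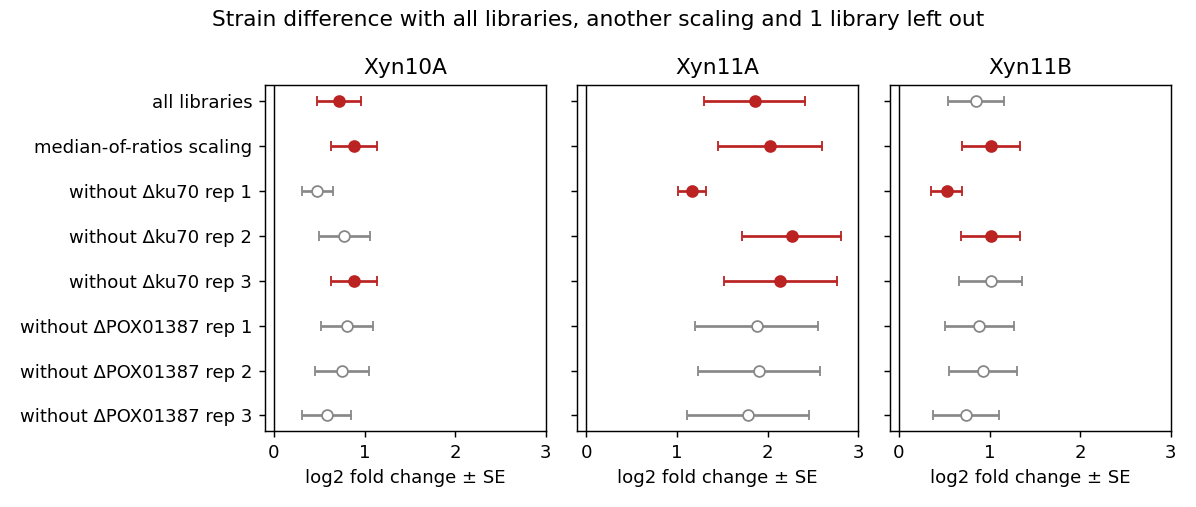
Log2 fold change (ΔPOX01387 minus Δku70) ± SE of each xylanase gene from limma with all libraries, with median-of-ratios scaling and with 1 library left out; filled red points passed an adjusted p of 0.05. Every point is above 0, which for the fits with 1 library left out was fixed because the strains do not overlap. The fits without Δku70 replicate 1 give the lowest value of each gene, 0.48 for Xyn10A, 1.17 for Xyn11A and 0.53 for Xyn11B.

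The proportions of the 3 transcripts were compared within libraries, where the scaling of a library cancels. Together the 3 genes made up 0.42%, 0.92% and 0.92% of the summed FPKM in Δku70 replicates 1, 2 and 3 and 1.36%, 1.32% and 1.69% in ΔPOX01387 replicates 1, 2 and 3. Xyn11A supplied 11.9%, 25.3% and 21.5% of this xylanase sum in the parental libraries and 33.0%, 32.9% and 31.0% in the mutant libraries. The Xyn11A share was higher in 3 of 3 mutant libraries than in any parental one, and the Xyn11B share was lower, at 56.8% to 62.5% in Δku70 and 49.7% to 51.6% in ΔPOX01387. The Xyn10A share was lower by a narrow margin, at 17.9% to 25.6% in Δku70 and 15.5% to 17.4% in ΔPOX01387. The shares add up to the whole, so these shifts are not separate results. A lower share went with higher FPKM in the mutant for both Xyn11B and Xyn10A.

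**Figure D4:**
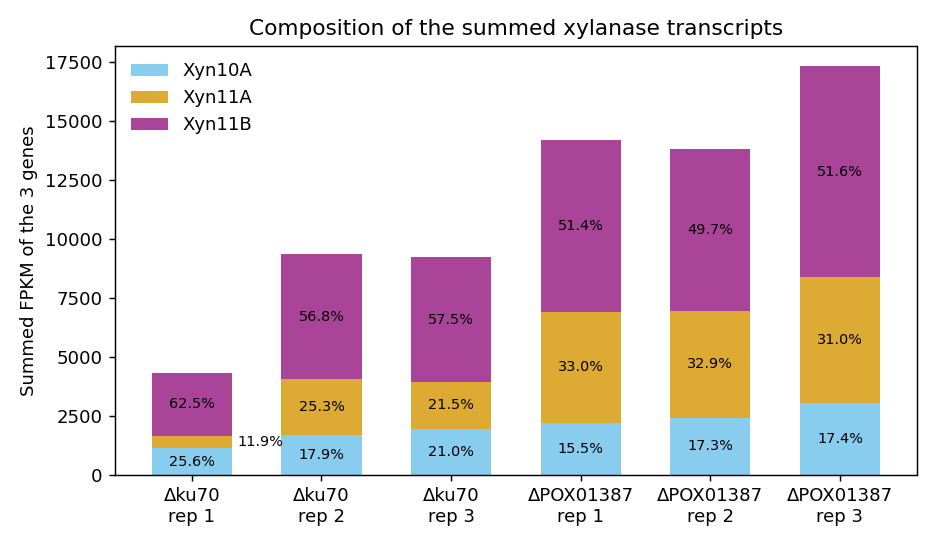
Summed FPKM of Xyn10A, Xyn11A and Xyn11B in each library, with the percentage each gene contributed. The mutant bars are taller, between 13828 and 17314 FPKM against 4329 to 9346 FPKM, and the Xyn11A segment takes 31.0% to 33.0% of them against 11.9% to 25.3%.

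The ratios between members were tested for each of the 3 pairs with an exact two-sided permutation test over the 6 libraries, which cannot give a p below 0.10. The log2 ratio of Xyn11A to Xyn11B had a parental mean of -1.66 ± 0.65 and a mutant mean of -0.66 ± 0.07 (SD, n = 3 each), a difference of 1.00 (exact permutation p = 0.10, adjusted over the 3 pairs p = 0.15). The log2 ratio of Xyn10A to Xyn11A was 0.19 ± 0.83 in Δku70 and -0.95 ± 0.13 in ΔPOX01387, a difference of -1.14 (exact permutation p = 0.10, adjusted p = 0.15). For both ratios the strains did not overlap, and the p is the smallest the design allows. How often the ratios of other gene pairs separate the strains in this way was not counted. The log2 ratio of Xyn10A to Xyn11B differed by less than its spread in Δku70, at -1.47 ± 0.19 and -1.60 ± 0.11, a difference of -0.14 (exact permutation p = 0.40, adjusted p = 0.40). Without Δku70 replicate 1 the 3 differences were 0.64, -0.69 and -0.05. In the mutant the order of levels was the same in 3 of 3 libraries. Xyn11B was 1.51-fold to 1.66-fold above Xyn11A, and Xyn11A was 1.78-fold to 2.13-fold above Xyn10A.

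Profiles over the 6 libraries were compared by the Euclidean distance between log2(FPKM + 1) values after subtracting each gene's own mean, among 8925 tested genes. Xyn10A and Xyn11B had alike profiles, at a distance of 0.35 on the log2 scale. Of the other 8924 genes Xyn10A was the 5th nearest to Xyn11B, and Xyn11B was the 9th nearest to Xyn10A. Xyn11A was farther from both, at 1.83 from Xyn10A and 1.54 from Xyn11B, and these genes were the 227th and 118th nearest to it. The median distance of a tested gene was 1.38 from Xyn10A, 3.06 from Xyn11A and 1.59 from Xyn11B. Without Δku70 replicate 1 the distance between Xyn10A and Xyn11B was 0.22, with Xyn10A the 41st nearest to Xyn11B and Xyn11B the 29th nearest to Xyn10A, and Xyn11A was at 0.84 from Xyn10A and 0.73 from Xyn11B, now its 856th and 562nd nearest genes. The distances hold the strain difference and the spread between replicates together.

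The genes nearest to Xyn11A were POX06599, at a distance of 0.23, and POX05587, at 0.34. The files pair neither with a product. POX06599 was at 255.68, 1408.27 and 1157.34 FPKM in Δku70 replicates 1, 2 and 3 and at 2501.91, 2543.66 and 2765.85 FPKM in ΔPOX01387 replicates 1, 2 and 3. POX05587 had a parental mean of 5500 ± 3018 FPKM and a mutant mean of 15647 ± 2572 FPKM (SD, n = 3 each), more than 3 times those of Xyn11A. The low value in Δku70 replicate 1 and the higher level in the mutant follow from choosing them by likeness to Xyn11A over the same libraries, so no test is given. The strain difference on the log2 scale was 1.80 for POX06599 and 1.71 for POX05587, and 1.03 and 1.10 without Δku70 replicate 1, when they were the 4th and 9th nearest to Xyn11A. The genes nearest to Xyn10A and Xyn11B were weakly expressed. POX08687 was nearest to both, at 0.16 from Xyn10A and 0.26 from Xyn11B, with a parental mean of 6.33 ± 1.93 FPKM and a mutant mean of 11.5 ± 1.54 FPKM (SD, n = 3 each). POX03979 was second for Xyn10A, with means of 7.90 ± 2.29 and 13.2 ± 1.69 FPKM, and POX02723 second for Xyn11B, with 13.8 ± 4.42 and 21.9 ± 5.27 FPKM. Without Δku70 replicate 1, POX08687 was the 7th nearest to Xyn10A and the 9th to Xyn11B, POX03979 the 11th to Xyn10A and POX02723 the 73rd to Xyn11B.

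**Figure D5:**
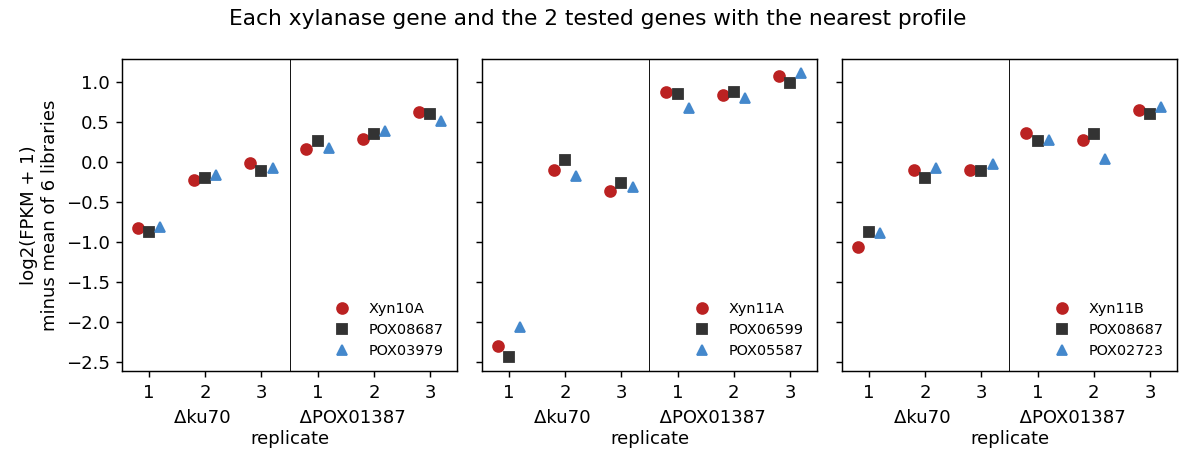
Log2(FPKM + 1) minus the gene's mean over the 6 libraries for each xylanase gene (red) and its 2 nearest tested genes, by replicate of Δku70 and ΔPOX01387. Xyn11A, POX06599 and POX05587 share a low point in Δku70 replicate 1, and the other 2 genes have a shallower one.

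Genes numbered next to the members are set beside the background of all tested genes, of which 15.3% were higher and 32.6% lower. The ID numbers serve as an order only, since positions in the genome were not used. Of the 9 tested genes among the 5 IDs on either side of Xyn10A, 1 was higher and 3 lower in ΔPOX01387, with log2 fold changes from -0.64 to 0.45. Around Xyn11A, 2 of 8 were higher and 0 lower, and POX06782, the ID directly below it, rose from 1.71 ± 0.81 to 4.88 ± 1.11 FPKM (SD, n = 3 each), with a log2 fold change of 1.14 ± 0.26 by limma (SE, adjusted p = 0.012). Around Xyn11B, 1 of 10 was higher and 6 lower. No test of these counts was made. The abundant POX08485, directly above Xyn11B, had means of 3516 ± 1115 and 5268 ± 871 FPKM in Δku70 and ΔPOX01387 (SD, n = 3 each) and was not called (0.63 ± 0.28, SE; limma, adjusted p = 0.11). Further above Xyn11B, POX08487 fell, with a parental mean of 90.6 ± 16.7 FPKM and a mutant mean of 20.6 ± 2.28 FPKM (SD, n = 3 each), by a fitted log2 change of -2.08 (limma, adjusted p = 2.5e-04). POX08488 fell likewise, with means of 4.28 ± 1.52 and 1.32 ± 0.076 FPKM (SD, n = 3 each), and the fitted log2 change was -1.15 (limma, adjusted p = 0.0067).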

How the data were processed

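Purified mRNA of 3 libraries per strain was fragmented, copied into cDNA from random primers and sequenced by BGISEQ, per the labels' protocols. Tools in the submitters' processing notes are RSEM 1.2.12, Bowtie2 2.1.0, BWA 0.7.10-r789 and DESeq2, without their roles. The genome build and any filters were not given in the sources used here. Per library, the authors deposited 1 table of FPKM values, per the file headers. No counts were used here, so depth is unknown and no counting intervals are given. Among genes listed at 0 in some library, between 64.1% and 76.0% of low values per library equalled the smallest step seen (within 5% plus 0.01 FPKM). That step was each gene's smallest nonzero value over the same libraries, and larger values were left out. The shares therefore cannot compare the depth of the libraries.

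Values were analysed as log2(FPKM + 1). Genes averaging 1 FPKM or more (8925 of 9727) entered limma 3.58.1 (R 4.3.3), with strain as the term, an intensity trend, two-sided tests and p-values adjusted by Benjamini-Hochberg over all tested genes, at 0.05. The procedure was tested on simulated data with independent normal noise and changes in a small part of the genes. Far more genes were called in the real libraries, so that test checks the code and not the fit to them. The pseudocount understates fold changes of weakly expressed genes, such as the deleted gene, POX06782 and POX08488, and hardly affects the abundant members. Reads shared between similar genes, such as the GH11 pair, could not be traced.

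The members and lists were chosen with earlier results of these data known. Named beside the members were the deleted gene, the 2 tested genes with the nearest profile to each member, and genes within 5 IDs called with a change of at least 2-fold; POX08485 was named after its values were seen. Planned lists of other xylan-degrading enzymes and regulators were not used, because 0 of the 9727 IDs matched the reference table (ASM172317v3), and no sequence or position is given. Alternatives were pseudocounts of 0.1 and 5, no filter and a minimum mean of 5 FPKM, 3 other scalings, other prior variances, a replicate block and each library left out.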

Additional observations from a re-analysis of the deposited data

How the results depend on the processing

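No alternative reversed a direction, which leaving out 1 library could not do for the fold changes of the members. Xyn11A was called under each alternative that kept all libraries, at 1.82 to 2.02 on the log2 scale (limma, adjusted p from 0.025 to 0.038). Xyn10A lost its call with no filter (0.71) and with equal sums (0.68); Xyn11B gained one with quantile normalization (0.87), median-of-ratios scaling (1.02), the replicate block (0.85) and no trend in the prior variance (0.85). The cause was not tested. With 1 library left out, the log2 fold change was 0.48 to 0.88 for Xyn10A, 1.17 to 2.27 for Xyn11A, 0.53 to 1.01 for Xyn11B and -3.17 to -2.90 for POX01387 (-3.06 with all libraries; the pseudocount sets this value, which is no bound, with -6.13 at 0.1 and -1.31 at 5), and the ratio differences were -1.49 to -0.69 (Xyn10A to Xyn11A), -0.24 to -0.05 (Xyn10A to Xyn11B) and 0.64 to 1.25 (Xyn11A to Xyn11B). Over all genes, 1366 were higher and 2906 lower; leaving out 1 library gave 833 to 1346 higher and 2099 to 2738 lower. Median-of-ratios scaling gave 2116 higher and 1972 lower and moved the median log2 fold change from -0.15 to 0.01; quantile normalization gave 1905 and 1963. Relative to that median, Xyn10A, Xyn11A and Xyn11B stood at 0.86, 2.00 and 1.00 as deposited and at 0.87, 2.01 and 1.01 with median-of-ratios scaling. Deviations of same-numbered libraries correlated at 0.088, 0.27 and 0.54 across genes, and those of unlike-numbered libraries at -0.52 to 0.097. The labels name no batch, and the numbers were not taken as pairs in the main fit. Whether libraries of the same number shared a batch was not tested. The replicate block called 1534 higher and 3051 lower. It called all 3 members, with limma adjusted p of 0.018 for Xyn10A, 0.028 for Xyn11A and 0.049 for Xyn11B. A minimum mean of 5 FPKM left POX01387 untested. Profile distances and fold changes of the nearest genes without Δku70 replicate 1 were chosen after seeing the data.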
